A study of Mus musculus with 18 samples.

Results

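The theta-class glutathione transferases were followed across 18 RNA-seq libraries of mouse pancreatic ductal adenocarcinoma cells. All rows of the table whose symbol was Gstt1, Gstt2, Gstt3 or Gstt4 were taken, which gave 4 of 16383 genes, each by 1 row: Gstt1 (ENSMUSG00000001663), Gstt2 (ENSMUSG00000033318), Gstt3 (ENSMUSG00000001665) and Gstt4 (ENSMUSG00000009093). Gstt1, Gstt2 and Gstt3 passed the filter for testing, a CPM (reads of the gene scaled to a common library total) of at least 1 in at least 4 libraries, and Gstt4 did not. The study lowered Gstt1 with short hairpin RNAs, so Gstt1 is the target and the other members are its paralogs.

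The cells were 6 lines grown from metastases, 42-3 and 6-2 from lung and 42-2, G45-2, 6-3 and 13-2 from liver. The genotype labels of all lines name a p53 allele (p53F/+ or Tp53F/+) and p48, which the label of the first 42-3 cultures gives as p48-Cre, a Cre recombinase driven from a pancreatic gene. They name SIRT6F/F in all lines but 13-2, whose label has no SIRT6 allele. Cells received lentivirus with a non-targeting hairpin (NT control, 8 libraries), Gstt1 shRNA 1 (6 libraries) or Gstt1 shRNA 2 (4 libraries), all under puromycin for 48 h. An NT control and the knockdown libraries of its line form a culture set here, and lines 42-3 and 42-2 gave 2 sets each, a first and a second, so that there were 8 sets, 3 from lung and 5 from liver lines. G45-2 and 6-3 had both hairpins, 4 sets had shRNA 1 alone and 2 had shRNA 2 alone. The labels name no separate cultures of a line within a set. Each p-value thus measures the spread between libraries, sets or lines as deposited, depending on the test, and part of that spread may be technical.

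Glutathione transferases join the tripeptide glutathione to electrophilic compounds, which makes these more soluble and readies them for export. The theta class is an old branch of the family, known for its action on small halogenated compounds and on some peroxides. It activates glutathione through a serine near the start of the protein, where many other classes use a tyrosine. Tissues such as liver are rich in theta-class enzymes, and in mouse the genes lie side by side.

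In the RefSeq gene table of GRCm38.p6 the order along chromosome 10 is Ddt, Gstt3, Gstt1, Gstt4, Gstt2 and Mif. The files are on mm9, so the order of genes is given without coordinates. The coding sequences show how alike the members are, which bears on how well reads and hairpins can tell them apart. The first 60 coding bases of each follow, from the GENCODE M21 transcripts, with the first serine codon, codon 11 in each of the 4 genes, in capitals.
Gstt1: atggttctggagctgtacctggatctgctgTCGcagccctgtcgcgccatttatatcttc
Gstt2: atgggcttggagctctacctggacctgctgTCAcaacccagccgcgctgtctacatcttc
Gstt3: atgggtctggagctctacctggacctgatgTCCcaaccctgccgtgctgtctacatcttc
Gstt4: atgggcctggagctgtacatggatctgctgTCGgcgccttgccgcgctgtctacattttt

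Gstt1 and Gstt3 were the closest pair over the whole coding sequence, with 75.5% identical bases (546 of 723 aligned). The other pairs were between 58.7% (Gstt2 with Gstt4) and 62.1% (Gstt2 with Gstt3), and Gstt1 shared 61.3% with Gstt2 and 61.7% with Gstt4. The longest run that Gstt1 shares with Gstt3 is 35 bases and begins at coding base 499. It is shown with its flanks as coding bases 469 to 563, in which the 20 of 95 bases that differ between the genes are in capitals.
Gstt1: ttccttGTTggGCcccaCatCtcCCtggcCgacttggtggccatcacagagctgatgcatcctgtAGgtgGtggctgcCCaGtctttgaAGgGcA
Gstt3: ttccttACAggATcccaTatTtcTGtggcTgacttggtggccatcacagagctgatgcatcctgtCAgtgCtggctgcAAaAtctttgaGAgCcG

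No pair of members had a run of 50 bases in common. Gstt1 and Gstt3 had 27 runs of 21 bases in common, 1.79% of the 1505 such runs in the Gstt1 transcripts, and Gstt1 had 0 in common with Gstt2 or Gstt4. The sources used here give neither the hairpin sequences, nor the read length, nor the rule for reads that match more than 1 gene, so a match of a hairpin to a paralog was not tested. Gstt3 also overlaps the gene model Gm20441 on the same strand in GENCODE M21, and how reads in that overlap were assigned is also not given.

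Library depth ran from 8411436 to 25552912 reads, and 3 reads, the most that a count of 0 allows, were worth 0.117 to 0.357 CPM. Control and knockdown libraries differed in 5 of 8 sets in transcripts taken here as marks of the identity of their line. Of 7 such identity transcripts (Ddx3y, Eif2s3y, Kdm5d, Uty, Xist, Cdkn2a and Cdkn2b), those above 10 CPM in one library and at least 10-fold lower in the other numbered 5 in the first 42-3 set, 6 in the second 42-3 set, 6 in 6-2, 2 in the first 42-2 set and 2 in 13-2. There were 0 in 6-3, 0 in the second 42-2 set and 1 in G45-2. That 1 was Kdm5d, at 29.8 CPM in the G45-2 control and 0 and 0.0621 CPM with shRNA 1 and shRNA 2. G45-2 is kept below as not differing by this rule, but its knockdowns are not thereby matched to their control. The second 42-2 set is not matched by its 0 either, since the 10 CPM limit hides low transcripts. Its Ddx3y, Eif2s3y, Uty and Kdm5d went from 3.00, 4.08, 2.08 and 1.00 CPM in the control to 0.0687 CPM each with shRNA 2. Xist was at 0.0494 CPM in the first 42-2 control and 41.7 CPM in the second, and both are taken as line 42-2 below. In the 5 sets that differ by this rule, the hairpin and whatever else set the libraries apart cannot be told apart. For the members, the mean changes over sets, the limma changes and the hairpin comparison are given with and without those sets. The changes of cell type markers, neighbours and other glutathione genes are given over all 8 sets only. The ductal marker list (Krt8, Krt18, Krt19, Epcam, Cdh1 and Sox9) summed to 518 to 14951 CPM in NT controls and 368 to 7662 CPM in knockdowns, with 5 of 6 markers lower, 0 passing the limma test (2 at an unadjusted p under 0.05) and a median log2 change of -1.04. Epcam and Cdh1 were down to 0.0391 and 1.17 CPM in the lowest knockdown library, and Krt8 and Krt18 were at 7.15 and 70.8 CPM or more in every knockdown library. The fibroblast list (7 of 8 in the table) summed to 5.79 to 2917 CPM in NT controls and 4.08 to 6452 CPM in knockdowns. Col3a1 alone reached 2681 and 6083 CPM, Col1a1 and Pdgfrb reached 240 and 329 CPM in knockdowns, and Dcn stayed at 1.31 CPM or less. The hepatocyte list (3 of 7 in the table) summed to 0.308 to 664 CPM in NT controls and 0.357 to 173 CPM in knockdowns. Apob alone reached 662 and 132 CPM, Apoa1 reached 34.4 CPM, Ttr stayed at 5.88 CPM or less, and Alb was not in the table. These sums thus follow mainly 1 gene each at their upper ends. Summed levels in NT controls and knockdowns were 1.09 to 3.53 and 1.08 to 7.63 CPM for lung epithelium (2 of 6 in the table), 3.76 to 16.6 and 1.53 to 14.0 CPM for macrophages (3 of 5) and 0.693 to 1.74 and 0 to 11.4 CPM for endothelium (4 of 4), and no marker in the table was at 0 in every library. The part of these differences in the results below was not tested.

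The target comes first. Gstt1 was at 37.6 and 38.8 CPM in the first and second NT controls of 42-3, 52.5 in 6-2, 43.8 in G45-2, 25.4 in 6-3, 24.3 in 13-2, and 2.67 and 0.616 in the first and second NT controls of 42-2. With shRNA 1 it was at 0.352 CPM in 42-3, 0.358 in 6-2, 0.373 in 42-2, 0.283 in 13-2, 23.9 in G45-2 and 19.2 in 6-3. With shRNA 2 it was at 0.238 CPM in 42-3, 0.0687 in 42-2, 0.250 in 6-3 and 5.15 in G45-2. Every knockdown library lay below the control of its own set, and the 95% exact counting interval of the ratio was below 100% in 10 of 10. In bulk RNA, fewer cells with a transcript and less of it per cell cannot be told apart. The groups still overlapped, because both 42-2 controls lay below the shRNA 1 libraries of G45-2 and 6-3. The title codes of 6-2 number control and hairpin in the reverse of the first 42-3 and 42-2 sets, and Gstt1 in that set was low in the library labelled shRNA 1.

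Gstt3, the closest relative of the target, was lower than its own control in 9 of 10 knockdown libraries. Its NT controls held 19.5 and 25.6 CPM in 42-3, 27.8 in 6-2, 43.9 in G45-2, 22.7 in 13-2, 7.43 in 6-3, and 2.82 and 2.31 in 42-2. With shRNA 1 it was at 0 CPM in 42-3, 0.283 in 13-2, 3.50 in 6-3, 8.14 in G45-2, 8.86 in 6-2 and 9.70 in 42-2. With shRNA 2 it was at 0.832 CPM in 42-3, 0.166 in 6-3, 0.412 in 42-2 and 4.78 in G45-2.
The lowest value was in the first 42-3 set, where 265 reads in the control stood against 0 with shRNA 1, at least 166-fold lower with 3 reads as the limit for that library. In 13-2 the shRNA 1 library held 1.24% of the control level (95% exact counting interval 0.337% to 3.22%), and in the second 42-3 set the shRNA 2 library held 3.25% (1.30% to 6.76%). The fall was smaller in 6-2, at 31.9% of control (26.5% to 38.2%), although Gstt1 was at 0.683% there. The first 42-2 set went the other way, with 57 Gstt3 reads in the control and 130 with shRNA 1, or 345% of control (250% to 479%), while the second 42-2 set with shRNA 2 was at 17.9% (6.08% to 43.6%). These intervals cover counting error only.

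Gstt2, a theta-class enzyme also known for sulfatase activity, was the least read of the tested members. NT controls held 5.01 and 0.404 CPM in 42-3, 1.41 in 6-2, 15.0 in G45-2, 0.750 in 6-3, 2.31 in 13-2, and 1.53 and 0.616 in 42-2. With shRNA 1 it was at 0 CPM in 42-3 and 13-2, 0.666 in 6-2, 0.970 in 42-2, 1.06 in G45-2 and 3.10 in 6-3. With shRNA 2 it was at 0 CPM in 42-3 and 42-2, 0.0832 in 6-3 and 1.06 in G45-2.
Gstt2 was thus below its own control in 9 of 10 knockdown libraries and at 0 reads in 4, but the counting interval was below 100% in 7. In the first 42-3 set it was at least 42.7-fold lower and in 13-2 at least 10.9-fold lower, with 3 reads as the limit for each library. In G45-2 both hairpins left about the same share of control, 7.10% (4.27% to 11.2%) with shRNA 1 and 7.05% (4.04% to 11.5%) with shRNA 2. Both of these libraries also differed from that control in Kdm5d, and the part of that difference was not tested. In 6-3 the shRNA 1 library stood above its control, 39 reads against 11, or 414% (208% to 895%).

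**Figure D1:**
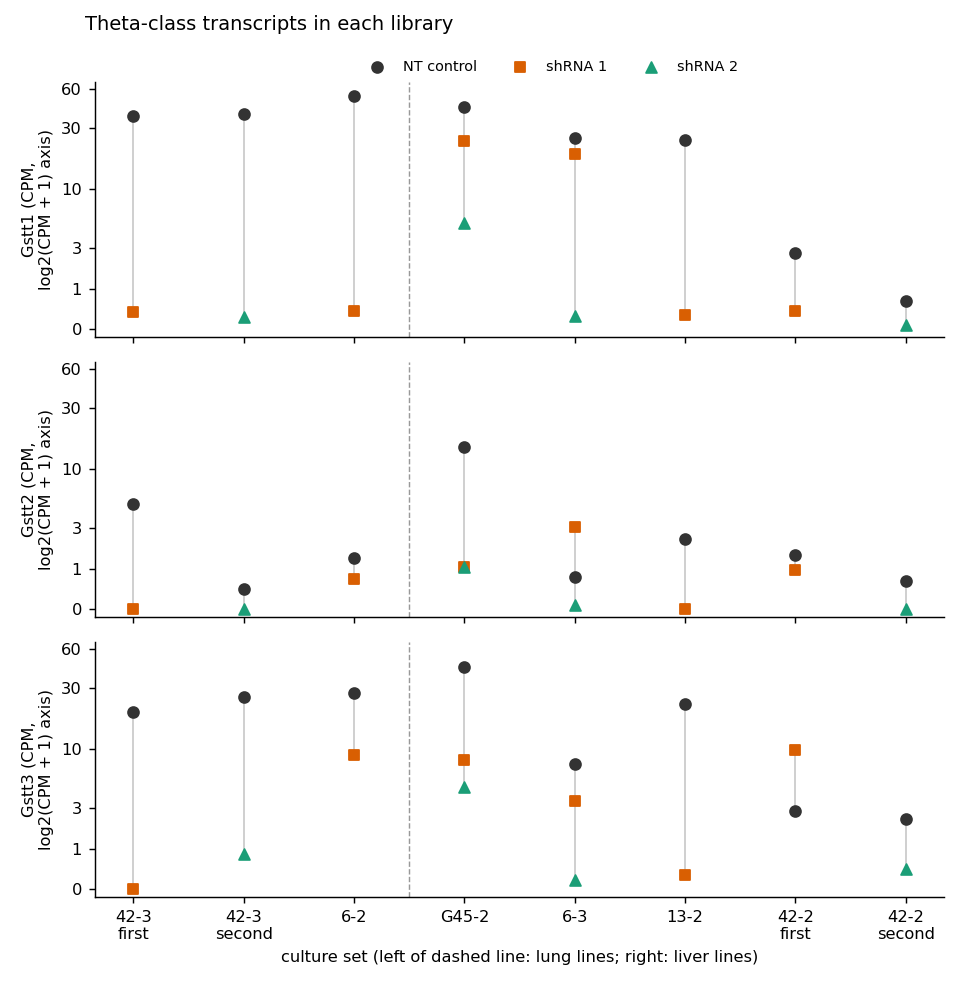
CPM of Gstt1, Gstt2 and Gstt3 in each library, on a log2(CPM + 1) axis, by culture set; black circles are NT controls, orange squares shRNA 1 and green triangles shRNA 2, with a grey line joining the libraries of a set. Gstt1 lies below its control in every set, whereas Gstt3 in the first 42-2 set (9.70 against 2.82 CPM) and Gstt2 in 6-3 with shRNA 1 (3.10 against 0.750 CPM) lie above theirs.

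Gstt4 was close to undetected. It had 1 read in the G45-2 NT control (0.0576 CPM), 1 in the second 42-3 NT control (0.0674 CPM) and 4 in G45-2 with shRNA 1 (0.213 CPM), and 0 in the other 15 libraries, which allows up to 0.117 to 0.357 CPM by library. A change of Gstt4 was not detectable at this depth.

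Averaged over culture sets, all of the tested members were lower on knockdown. Beside them, 53.0% of all genes tested were lower in the limma fit, and 17.1% reached an unadjusted limma p under 0.05. The mean difference from the own control, on the log2(CPM + 1) scale that understates changes of low genes, was -2.28 ± 1.95 for Gstt3 (SD, n = 8 sets; exact two-sided sign-flip permutation p = 0.0234), lower in 7 of 8 sets. Gstt2 differed by -1.13 ± 1.15 (SD, n = 8 sets; exact permutation p = 0.0156), also lower in 7 of 8. Gstt1 stood at -3.21 ± 1.85 (SD, n = 8 sets; exact permutation p = 0.00781), lower in 8 of 8, and that p is the smallest that 8 sets allow.
The sets of 42-3 and of 42-2 share a line. With the 6 lines as units the exact permutation p was 0.0313 for Gstt1, 0.0625 for Gstt2 and 0.0625 for Gstt3. Without the 5 sets that differ in identity transcripts the mean change was -1.62 for Gstt1 and -1.91 for Gstt3, each lower in 3 of 3 sets (exact permutation p = 0.25 for both, the smallest that 3 sets allow), and -1.13 for Gstt2, lower in 2 of 3 (exact permutation p = 0.5). In those 5 sets themselves the mean change was -4.17 ± 1.58 for Gstt1, -2.50 ± 2.50 for Gstt3 and -1.14 ± 0.98 for Gstt2 (SD, n = 5 sets).

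In the limma model across 12931 genes, with the culture set as a block, no member passed an adjusted p of 0.05. In that comparison 0.0387% of all genes tested were called (5 genes). The log2 change was -3.27 (SE 0.67, limma adjusted p = 0.0820) for Gstt1, -2.38 (SE 0.57, adjusted p = 0.109) for Gstt3 and -1.19 (SE 0.43, adjusted p = 0.197) for Gstt2. The median over all genes tested was -0.03. Without the 5 sets that differ in identity transcripts the changes were -1.37 (limma adjusted p = 0.489) for Gstt1, -1.83 (adjusted p = 0.337) for Gstt3 and -1.06 (adjusted p = 0.600) for Gstt2. The order of the members depended on the scale. By edgeR on the recovered reads, whose fitted changes of genes with libraries at 0 depend on its own prior count, the changes were -5.13 (edgeR adjusted p = 0.133) for Gstt1, -3.51 (adjusted p = 0.225) for Gstt2 and -3.24 (adjusted p = 0.211) for Gstt3, and the median level over the 10 knockdown libraries was 6.16% of control for Gstt1, 7.07% for Gstt2 and 14.4% for Gstt3. Blocking on the cell line in place of the culture set brought Gstt1 past the threshold, at -3.26 (limma adjusted p = 0.0452).

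Whether the paralogs changed by as much as the target was tested on the difference of the changes. On log2(CPM + 1) the change of Gstt1 minus that of Gstt2 was -2.08 ± 2.06 (SD, n = 8 sets; exact permutation p = 0.0469), and 6 of the 8 omissions of 1 set took that p past 0.05, to 0.0938 at most. Gstt2 started low and was at 0 reads on knockdown in 4 of the sets, where its change on this scale could not be larger, so the difference does not show that Gstt2 was lowered by a smaller factor. Gstt1 and Gstt3 differed by -0.94 ± 1.62 (SD, n = 8 sets; exact permutation p = 0.180), which is within the spread between sets and does not show that they fell alike. Without the 5 sets that differ in identity transcripts the difference between Gstt1 and Gstt3 was 0.30 and had the other sign.

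**Figure D2:**
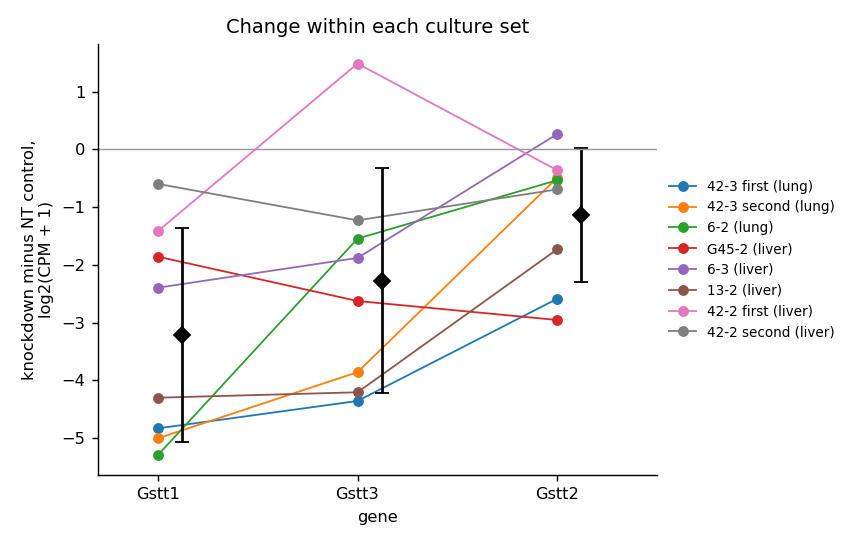
Change of Gstt1, Gstt3 and Gstt2 in each of the 8 culture sets, as knockdown (mean of the hairpins where there are 2) minus NT control on log2(CPM + 1); each colour is a set, and black diamonds with bars are the mean ± SD over sets. The means lie at -3.21, -2.28 and -1.13, and the first 42-2 set rises for Gstt3.

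The labels carry library codes whose meaning they do not state, and within each code or pair of codes the mean changes kept their sign. In 6-3 and 13-2 the control carries CFa11 and the knockdowns CFa12, so code and hairpin cannot be told apart there. Gstt3 changed by -1.47 over the 3 sets of code CFa8 (from -4.36 to 1.49), by -3.24 over the 2 sets of CFa11, by -3.04 over the 2 sets whose controls and knockdowns carry the codes CFa11 and CFa12, and by -1.23 in the set of CFa13. Gstt1 changed by -3.85, -3.43, -3.35 and -0.60 in the same order, and Gstt2 by -1.16, -1.72, -0.73 and -0.69.

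The hairpins were compared next. Across all libraries shRNA 1 changed Gstt1 by -2.67 (limma adjusted p = 0.181), Gstt3 by -1.92 (adjusted p = 0.222) and Gstt2 by -1.03 (adjusted p = 0.329), where 0% of all genes were called (2077 at an unadjusted p under 0.05, and 0 called by edgeR). For shRNA 2 the changes were -3.86 (limma adjusted p = 0.715), -2.84 (adjusted p = 0.715) and -1.34 (adjusted p = 0.764), again with 0% of all genes called (834 at an unadjusted p under 0.05, and 0 called by edgeR). The difference, shRNA 2 minus shRNA 1, was -1.19 for Gstt1 (95% confidence interval -3.49 to 1.11), -0.92 for Gstt3 (-2.88 to 1.04) and -0.31 for Gstt2 (-1.78 to 1.15), each with a limma adjusted p of 0.9999 and 0% of all genes called (64 at an unadjusted p under 0.05, and 0 called by edgeR). The intervals span 0 and are wide enough to hold differences of several fold. For Gstt1 the difference was -0.07 without the set of 6-3. Without the 5 sets that differ in identity transcripts, which leaves G45-2, 6-3 and the second 42-2 set, the shRNA 1 change of Gstt1 was -0.11 (limma adjusted p = 0.983) and the shRNA 2 change -2.62 (adjusted p = 0.470), a difference of -2.51 (95% confidence interval -4.54 to -0.47, limma adjusted p = 0.9998). Gstt3 then changed by -1.32 with shRNA 1 (limma adjusted p = 0.650) and -2.35 with shRNA 2 (adjusted p = 0.470), and Gstt2 by -0.67 (adjusted p = 0.880) and -1.45 (adjusted p = 0.572). Without the second 42-2 set as well, the shRNA 1 change of Gstt1 was -0.62 (limma adjusted p = 0.785). Against their own controls the shRNA 1 libraries of G45-2 and 6-3 stood at -0.85 and -0.39 for Gstt1, so -0.11 lies outside both. Through the shared fit, -0.11 also draws on the second 42-2 set, which has no shRNA 1 library. The control of that set held 0.616 CPM (8 reads) of Gstt1, which leaves little room for a fall on this scale.

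G45-2 and 6-3 allow the hairpins to be set side by side within a line, with 1 library for each, so no spread between cultures is known. In G45-2, Gstt1 with shRNA 2 was 21.6% of its level with shRNA 1 (95% exact counting interval 16.9% to 27.3%), Gstt3 was 58.7% (44.1% to 77.7%) and Gstt2 99.2% (48.8% to 199%). In 6-3 the same ratios were 1.30% for Gstt1 (0.267% to 3.86%), 4.76% for Gstt3 (0.559% to 18.2%) and 2.69% for Gstt2 (0.0663% to 15.9%). In 6-3, then, all tested members were lowest with shRNA 2, while in G45-2 Gstt2 was as low with one hairpin as with the other within counting error.
The order among members also differed between these libraries. With shRNA 1 in G45-2, Gstt1 kept 54.5% of its control level (48.4% to 61.3%) and Gstt3 18.5% (15.5% to 22.1%), so that the paralog was the further below its control. In 6-3 with shRNA 1, Gstt1 kept 75.4% (63.8% to 88.8%) and Gstt3 47.1% (32.4% to 67.4%). With shRNA 2 in G45-2, Gstt1 was at 11.8% (9.26% to 14.8%) and Gstt3 at 10.9% (8.50% to 13.8%), with intervals that overlap.

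The reads of all members together show how the composition moved. Theta-class reads summed to 50.6 ± 34.7 CPM in NT controls (SD, n = 8; 3.54 to 103) and 9.39 ± 11.7 CPM in knockdowns (SD, n = 10; 0.352 to 33.3). These are shares of reads, not corrected for the lengths of the transcripts, so they follow each gene across libraries and do not rank the genes. Gstt1 took 64.3% of theta-class reads in the 6-2 control (95% exact binomial interval 61.5% to 67.0%) and 3.63% with shRNA 1 (1.47% to 7.33%), where Gstt3 made up 89.6%. A like shift stood in the first 42-2 set, with Gstt1 at 38.0% (30.0% to 46.5%) and 3.38% (1.11% to 7.71%), and Gstt3 at 87.8% with shRNA 1.
G45-2 moved the other way with shRNA 1. Its Gstt1 share was 42.7% (40.3% to 45.0%) in the control, 71.7% (68.0% to 75.2%) with shRNA 1 and 46.9% (39.4% to 54.5%) with shRNA 2. In 6-3 the share was 75.7% (71.6% to 79.4%) in the control and 74.4% (69.3% to 79.0%) with shRNA 1, a difference within counting error. The remaining knockdown libraries, including 6-3 with shRNA 2, held 6 to 9 theta-class reads each, too few to give a share.

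**Figure D3:**
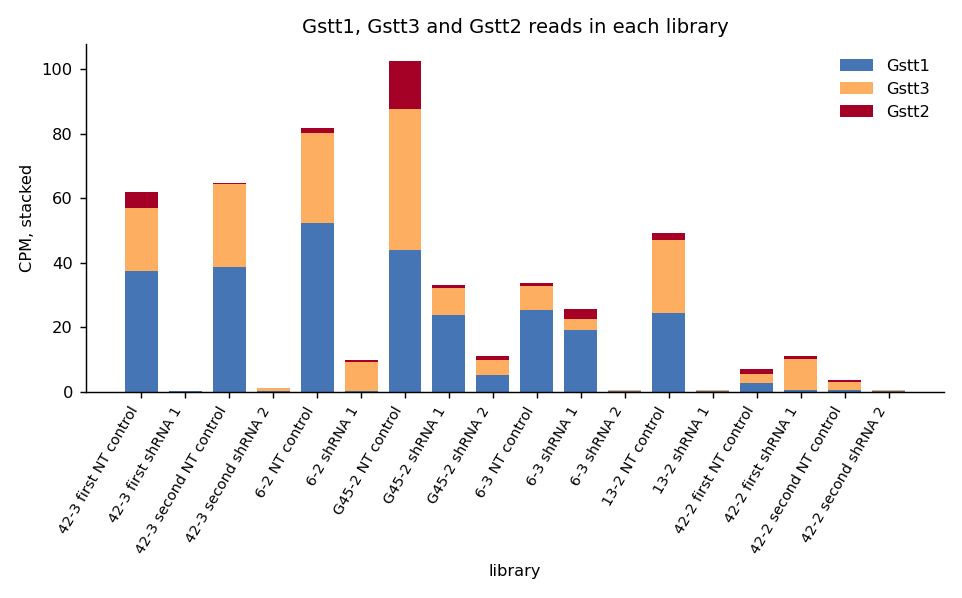
CPM of Gstt1 (blue), Gstt3 (orange) and Gstt2 (dark red) stacked for each of the 18 libraries, ordered by culture set; bar height is the sum of the 3 genes. NT controls run from 3.54 to 103 CPM, and the knockdown libraries of 6-2 and the first 42-2 set are mostly Gstt3.

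NT control levels varied widely between lines. For Gstt1 the order was 6-2, G45-2, 42-3, 6-3, 13-2 and 42-2, and for Gstt3 it was G45-2, 6-2, 13-2, 42-3, 6-3 and 42-2. By mean log2 level Gstt2 ran G45-2, 13-2, 42-3, 6-2, 42-2 and 6-3. A line with 1 control has no spread of its own. The 2 controls of 42-3 were at 37.6 and 38.8 CPM for Gstt1 and 19.5 and 25.6 CPM for Gstt3, so for Gstt3 the neighbouring 13-2 (22.7 CPM) lay between them, while for Gstt2 they were at 5.01 and 0.404 CPM, a range that takes in 13-2, 6-2 and 6-3 and both 42-2 controls. Line 42-2 had the lowest Gstt1 and Gstt3 in both of its controls.

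Differences between lung and liver controls were within the spread between lines. On line means of log2(CPM + 1), lung minus liver was 1.48 for Gstt1 (5.52 ± 0.32 in 2 lung lines and 4.04 ± 1.87 in 4 liver lines, mean ± SD; limma adjusted p = 0.576; exact permutation p = 0.267). It was 0.96 for Gstt3 (limma adjusted p = 0.678; exact permutation p = 0.667) and -0.48 for Gstt2 (limma adjusted p = 0.839; exact permutation p = 1). Without line 42-2 the difference was 0.56 for Gstt1 and 0.32 for Gstt3. The smallest p that 2 against 4 lines allow is 0.133, and limma called 0.0309% of all genes in that comparison.

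The knockdown change was also set against the site. On log2(CPM + 1) Gstt1 changed more in lung than in liver lines, by -3.04 (95% confidence interval -5.47 to -0.60). This did not pass after adjustment (limma adjusted p = 0.207), with 0.186% of all genes called. The Gstt1 controls of liver line 42-2 stood at 1.88 and 0.69 on that scale, which are the largest falls they allow. Gstt1 changed there by -1.42 and -0.60, with 14.0% and 11.2% of control left. The part of this limit in the site difference was not tested. All 3 lung sets are among the 5 that differ in identity transcripts, so site and that difference cannot be told apart for the lung lines. The lung minus liver difference was -1.58 for Gstt3 (limma adjusted p = 0.493) and -0.10 for Gstt2 (adjusted p = 0.964), and the sign for Gstt2 turned with the pseudocount and with the set left out.

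Gstt1 and Gstt3 were then related over the 6 lines. In NT controls Pearson's r was 0.883 (exact permutation p = 0.0194, 0.0389 after Benjamini-Hochberg adjustment over 2 relations) and Spearman's rho was 0.771 (exact permutation p = 0.103, adjusted 0.206). Without 42-2 and 6-2, the lines farthest from the median Gstt1 level, r was 0.714 (n = 4, exact permutation p = 0.333), so the relation rests in part on those lines. For the change on knockdown r was 0.601 (exact permutation p = 0.210, adjusted 0.210) and rho was 0.314 (exact permutation p = 0.564, adjusted 0.564), which does not show a relation. Without 42-2 and 6-2 r was 0.892, but the 4 lines left are too few to show one.

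Over all 18 libraries the genes most like each member were taken by Pearson's r of log2(CPM + 1), as a description. The libraries share lines, hairpins and controls. Nearest to Gstt1 were Slc44a3, a choline-transporter-like protein (r = 0.910), Hrsp12, an imine deaminase (r = 0.860), and O3far1, a receptor for long-chain fatty acids (r = 0.856). Gstt3 followed at 0.813, with 18 genes higher, and Gstt2 at 0.679, with 261 genes higher. Nearest to Gstt3 were Ndufs5, a subunit of respiratory complex I (r = 0.859), Ada, adenosine deaminase (r = 0.858), and Mapkapk3, a kinase downstream of p38 (r = 0.858). Nearest to Gstt2 were Entpd3, an ectonucleotidase (r = 0.884), Cwh43 (r = 0.873), and Epcam, an epithelial adhesion molecule and ductal marker (r = 0.866).

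Genes beside the cluster were read in the same fit. Of the 20 nearest genes in the table, 10 to either side, 8 were higher and 12 lower on knockdown, 0 passed at a limma adjusted p of 0.05 (5 at an unadjusted p under 0.05, a level reached by 17.1% of all genes tested) and the median log2 change was -0.16. Ddt, the D-dopachrome tautomerase gene next to Gstt3, went from 13.5 to 7.72 CPM in the group means (log2 change -0.92, SE 0.51, limma adjusted p = 0.378). Mif, its relative on the Gstt2 side, went from 57.9 to 55.5 CPM (-0.23, SE 0.44, adjusted p = 0.829). The 4 of smallest p were Adora2a, the adenosine A2a receptor (-2.22, limma adjusted p = 0.117), Pcnt, a centrosome scaffold (0.76, adjusted p = 0.177), Specc1l, which links actin and microtubules (0.55, adjusted p = 0.184), and Zfp280b (0.68, adjusted p = 0.266).

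**Figure D4:**
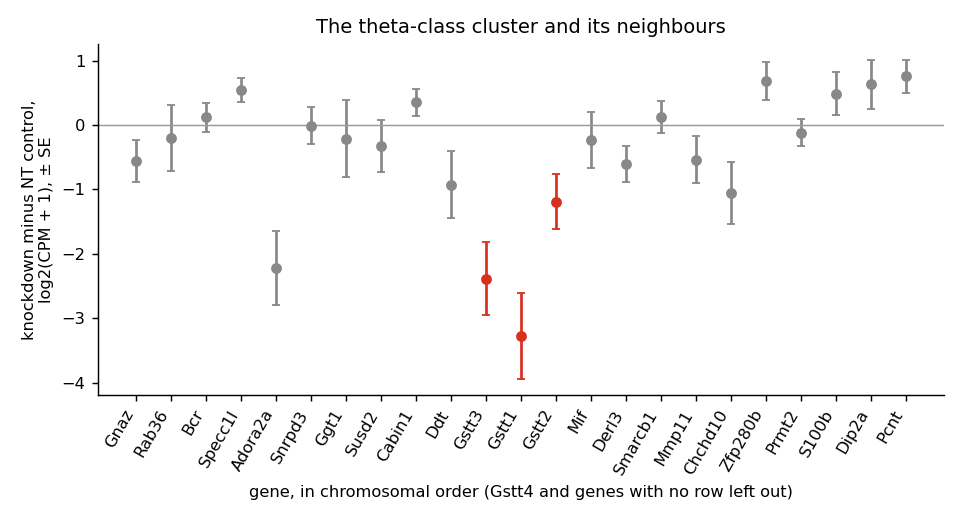
Log2 change on knockdown ± SE (limma, knockdown minus NT control on log2(CPM + 1)) for Gstt3, Gstt1 and Gstt2 in red and the 20 nearest genes in the table in grey, in chromosomal order without distances. The red points lie at -2.38, -3.27 and -1.19, Ddt and Mif to either side at -0.92 and -0.23, and Adora2a at -2.22.

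Other genes of glutathione metabolism were counted from a list of 46, of which 43 were in the table and 38 were tested. The list holds the alpha, mu, pi, omega, zeta, kappa and microsomal transferases and the enzymes that make, recycle and break down glutathione. It also holds Gpx genes, Glrx, Glrx2, Gstcd, Hpgds, the transporters Slc7a11 and Abcc1, and Idh1 and G6pdx. On knockdown 8 were higher, 30 were lower and 0 passed at a limma adjusted p of 0.05 (7 at an unadjusted p under 0.05, beside 17.1% of all genes tested), and 53.0% of all genes tested were lower. The list had a median log2 change of -0.37 beside -0.03 for all genes tested. The 2 of smallest p were Gsta3, an alpha-class transferase (-1.32, limma adjusted p = 0.169; 4.38 ± 3.62 CPM in 8 NT controls and 1.16 ± 1.68 in 10 knockdowns), and Gstm4, a mu-class transferase (-1.78, limma adjusted p = 0.184; 21.4 ± 20.2 and 4.06 ± 3.20 CPM).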

How the data were processed

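Cells were measured by RNA-seq of total RNA made into libraries with a TruSeq kit, as the labels' protocols state. The authors deposited 1 table of CPM for 18 libraries and 16383 genes. The genome build is mm9, per the submitters' processing notes. The sources used here give no aligner, counter, annotation or filter. All values (100%) were whole multiples of 1 read within 0.01 reads, which gave the read counts and depths. Every pair of libraries differed by more than sampling noise.

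Groups came from the sample titles, and sets from line and library code; the line named in the labels pairs the libraries of a set. limma 3.58.1 (trend, two-sided) in R 4.3.3 was run on log2(CPM + 1), for genes that reached a CPM of 1 in 4 or more libraries, with the set as a block and Benjamini-Hochberg adjustment over all genes tested. The fit was also run on simulated counts in which a changed gene changed alike in every set. The members here did not, so that run does not show how well the fit does on these data. edgeR 4.0.16 (quasi-likelihood) on the recovered whole reads was an alternative and called 0 genes for knockdown. Exact sign-flip and permutation tests and counting intervals (95%) used Python 3.11.15 and scipy 1.17.1, and sequences were aligned with Biopython. The members, gene lists, identity transcripts and tests were chosen with earlier results of these data known. All members are named, with the 3 genes of highest r to each, up to 4 neighbours and 2 glutathione genes of smallest p, and the flanking Ddt and Mif by position. One marker of the ductal list and part of the genotype labels are not reported here.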

Additional observations from a re-analysis of the deposited data

Results flagged for a closer look

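Dixon's test at the 95% level was applied to 15 groups of 4 to 8 values. These were the libraries of each gene by NT control or hairpin, and the changes over sets of each tested gene. In 6 groups, all of them groups of libraries, 1 library had a gap to the next that was large for the range of its group. For normally distributed values the test on its own picks out about 1 group in 20 by chance. CPM values are bounded at 0 and mixed over lines of unlike level, so that rate need not hold here. Gstt4 with shRNA 2 was at 0 throughout and could not be tested. G45-2 with shRNA 2 stood above the other shRNA 2 libraries for Gstt1 (5.15 CPM), Gstt2 (1.06 CPM) and Gstt3 (4.78 CPM). The G45-2 NT control stood above the other controls for Gstt2 (15.0 CPM). Line 6-3 stood above the other shRNA 1 libraries for Gstt2 (3.10 CPM), and G45-2 with shRNA 1 for Gstt4 (0.213 CPM, 4 reads, against 0 in the other shRNA 1 libraries).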

How the results depend on the processing

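Alternatives were other pseudocounts, filters and scalings, no replicate block or the cell line as the block, edgeR, fewer sets or lines, and leaving out each set or line. Of 233 values that left out more than 1 set or none, 213 kept direction and side of the threshold, as did 166 of 178 values that left out 1 set or line. No member passed the limma threshold in any main comparison. A limma value thus counted as kept if its sign held and it still did not pass, whatever its size. Gstt1 on knockdown counted as kept at -1.37 (limma adjusted p = 0.489) without the 5 sets that differ in identity transcripts. Without the replicate block Gstt1 changed by -2.91 (limma adjusted p = 0.0920), and with the cell line as the block by -3.26 (adjusted p = 0.0452). The count of all genes called on knockdown ran from 0 to 84 (84 without the block, 51 with the line as block, 0 by edgeR and without a filter). Leaving out 1 set gave 8 without the first 42-3 set, 3 without G45-2 and 0 for every other set. It was also 0 without the 5 sets that differ in identity transcripts and without lines 6-3 and 13-2. At an unadjusted p under 0.05 limma had 2216 genes and edgeR 1959.

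Leaving out 1 set kept Gstt1, Gstt2 and Gstt3 under p = 0.05 in the exact tests over sets, and Gstt1 also stayed under it over 6 lines and without 6-3 and 13-2. The values that follow did not; with 3 or 2 sets no p under 0.05 can be reached, and for the others the cause was not tested. Without the 5 sets that differ in identity transcripts the changes were -1.62 (Gstt1), -1.13 (Gstt2), -1.91 (Gstt3) and -0.49 (Gstt1 minus Gstt2), and without the second 42-2 set as well -2.13, -1.34, -2.25 and -0.78. Over 6 lines Gstt2 was at -1.17, Gstt3 at -2.37 and Gstt1 minus Gstt2 at -2.13, and without lines 6-3 and 13-2 Gstt3 was at -2.02 and Gstt1 minus Gstt2 at -1.90. Leaving out 1 set gave -2.53 to -1.69 for Gstt1 minus Gstt2. Gstt1 minus Gstt3 turned to 0.30 and 0.13 in the 2 reduced groups of sets. The r of the NT control levels fell to 0.714 without 42-2 and 6-2.

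Differences of Gstt2 turned sign in some settings. Between hairpins it was 0.21 without 6-3 and 13-2 (-0.52 to 0.25 leaving out 1 set). The lung minus liver change was 0.0065 with a pseudocount of 2 and 0.34 without 6-3 and 13-2 (-0.71 to 0.66 leaving out 1 set), and lung minus liver controls ran from -0.84 to 0.22 leaving out 1 line. edgeR gave -2.21, -2.27 and -1.16 for these 3 differences, farther from 0 than limma. For Gstt1 the hairpin difference ran from -1.96 to -0.07 leaving out 1 set. The cause of these was not tested. A CPM minimum of 5 removed Gstt2, and the site term could not be fitted without the 5 sets, which leave liver lines alone. Depth limits Gstt2 and Gstt4, since 3 reads are worth up to 0.357 CPM.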
